A study of Mus musculus with 12 samples.

Results

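Acta1, Tnnt3, Tnni2, Actn3, Mylpf, Myh1, Myh4, Atp2a1 and Ckm, 9 of the 54146 genes counted in mouse retina libraries, encode proteins of the skeletal muscle fiber. They were chosen by their CPM in these same libraries, so their levels are described here without a test, and they were read as a possible sign of extraocular muscle, the striated muscle attached to the eyeball, in the dissection. Whole retinas of 12 mice that shared 1 strain background were sequenced, with 1 library per mouse and 3 mice per group. The P30 mice (mice 1 to 3), killed at P30, are labelled as control with no day of induction, the study's methods place them at 0 d of the tamoxifen series, and whether they carried Crx-CreERT2 is not given in the labels. The cKO mice carried Crx-CreERT2 and Otx2 flox/flox and received 1 intraperitoneal injection of tamoxifen at P30, which activates the Cre that the Crx transgene drives in photoreceptors, and they were killed at P32 (mice 4 to 6), P34 (mice 7 to 9) or P38 (mice 10 to 12), which is 2, 4 and 8 d later. Between the P30 mice and the others, age, time since tamoxifen, deletion and any difference in genotype go together and cannot be told apart. The mice were of both sexes, the study counts RNA of the retinal pigment epithelium in its whole retina samples, and the labels do not say how far muscle was trimmed from the eyeball.

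A skeletal muscle fiber shortens when heads of myosin, in the thick filament, pull on actin, in the thin filament, which is anchored at the Z disc. Calcium released from the sarcoplasmic reticulum binds troponin on the thin filament and permits this, a calcium pump then clears it, and creatine kinase restores the ATP consumed. Fast and slow fibers use different genes for many of these parts, and the 9 genes are mostly those of fast fibers. The retina itself holds no skeletal muscle.

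Libraries held 29701483 to 60145034 counts on genes, which put 3 counts at 0.0473 to 0.102 CPM (the count of a gene scaled by the TMM-adjusted total of its library). Rods, the main cell of the retina, were plain in every library: Gnat1, Sag, Pde6b and Nrl together reached 22033 to 38253 CPM. Lens genes differed more than any other list between libraries, from 279.7 to 45746 CPM. All 9 muscle genes passed the filter on low counts, although 4 of them had a library with 0 counts.

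Of the 9 genes, 5 lie on chromosome 7 of GRCm38. Tnni2 and Tnnt3 stand 54425 bases apart there on the plus strand, and Myh1 and Myh4 stand 13453 bases apart in the myosin heavy chain cluster of chromosome 11. RefSeq promoter sequences were given for 6 of the genes, and not for Tnnt3, Tnni2 and Actn3. Shown are the 250 bases before the RefSeq start of 3 genes that differ in how they were counted: Acta1 and Mylpf, which had counts in every library, and Myh4, which was at 0 counts in 6 libraries. They are given 5′ to 3′ on the strand of the gene, from GRCm38.p6, as chr8:123894776-123895025 (minus strand), chr7:127211358-127211607 (plus strand) and chr11:67237562-67237811 (plus strand). RefSeq and GENCODE M21, which gives the gene bounds printed here, can place a start differently. The Myh4 window ends before the GENCODE start of the gene, and the Mylpf window lies inside the GENCODE gene, where other transcripts start further upstream. Capitals mark matches, on either strand, to CANNTG (the E-box bound by MyoD and its relatives), to CATTCC (the MCAT element), to TATAAA, and to the CArG box of SRF and the MEF2 site, which were searched by their usual patterns.
Acta1: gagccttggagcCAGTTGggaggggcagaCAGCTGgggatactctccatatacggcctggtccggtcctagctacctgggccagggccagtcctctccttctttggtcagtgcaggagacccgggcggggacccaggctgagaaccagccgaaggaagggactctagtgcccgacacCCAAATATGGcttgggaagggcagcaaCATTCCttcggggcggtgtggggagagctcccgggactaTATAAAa
Mylpf: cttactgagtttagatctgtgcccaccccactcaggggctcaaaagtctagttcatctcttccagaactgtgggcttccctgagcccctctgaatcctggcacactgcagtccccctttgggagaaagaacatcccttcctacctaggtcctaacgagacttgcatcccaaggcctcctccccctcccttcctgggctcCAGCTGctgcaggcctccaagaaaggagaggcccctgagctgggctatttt
Myh4: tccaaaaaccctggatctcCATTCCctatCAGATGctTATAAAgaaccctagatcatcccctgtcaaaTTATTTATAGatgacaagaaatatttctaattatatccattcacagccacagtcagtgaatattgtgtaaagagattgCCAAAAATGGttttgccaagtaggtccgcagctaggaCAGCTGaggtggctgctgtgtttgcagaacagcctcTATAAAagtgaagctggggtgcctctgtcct
The E-box was in 5 of the 6 promoters, but it was also in 66.2% of all 32851 RefSeq windows of this length. The CArG box was in the Acta1 and Myh4 windows and in 1.47% of all windows, and the MEF2 site was in the Myh1 and Myh4 windows and in 2.92% of all. In both myosin windows the MEF2 match overlaps a TATA match. A TATA match was in 3 of the 6 and in 12.4% of all, and the MCAT element in 3 of the 6 and in 12.6% of all. A match describes the letters of the window and does not show that a factor binds there.

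Acta1 (ENSMUSG00000031972, GRCm38 minus strand of chromosome 8, bases 123891769 to 123894751) encodes skeletal muscle alpha-actin, the protein of the thin filament. It had 2.19, 9.04 and 1.43 CPM in P30 mice 1, 2 and 3, then 4.08, 1.91 and 2.44 CPM in P32 mice 4, 5 and 6. It had 2.29, 1.88 and 25.1 CPM in P34 mice 7, 8 and 9 and 1.38, 4.95 and 18.1 CPM in P38 mice 10, 11 and 12. The 4 highest libraries were those of mice 9, 12, 2 and 11, which belong to 3 different groups, and mouse 4 came close behind mouse 11. Every library had at least 48 counts of it, so it was detected in all of them.

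Tnnt3 (ENSMUSG00000061723, plus strand of chromosome 7, bases 142498836 to 142516009) encodes fast skeletal troponin T, which ties the troponin complex to tropomyosin. Its counts were 15, 533 and 4 in P30 mice 1 to 3, 2, 4 and 5 in P32 mice 4 to 6, 8, 0 and 560 in P34 mice 7 to 9, and 9, 116 and 368 in P38 mice 10 to 12. Mice 2, 9, 11 and 12 had 10.8, 18.9, 2.72 and 12.5 CPM, and no other mouse was above 0.236 CPM. Tnnt3 thus set the same 4 libraries apart with a gap of 11.5-fold between the lowest of them and the highest of the rest. The level in mouse 9 was at least 258-fold above that in mouse 8, which had 0 counts and is taken at the floor of 3 counts per library.

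Tnni2 (ENSMUSG00000031097, plus strand of chromosome 7, bases 142441808 to 142444410) encodes fast skeletal troponin I, the inhibitory subunit of the complex. It had 2, 261 and 0 counts in P30 mice 1 to 3, 2, 7 and 3 in P32 mice 4 to 6, 4, 0 and 351 in P34 mice 7 to 9 and 2, 87 and 211 in P38 mice 10 to 12. In CPM, mice 2, 9, 11 and 12 had 5.27, 11.9, 2.04 and 7.16, and the other 8 mice had 0 to 0.181. The gap between the 4 libraries and the rest was 11.3-fold, close to that of its neighbor Tnnt3. Within these 4 libraries the counts of Tnni2 were 0.49, 0.63, 0.75 and 0.57 times those of Tnnt3 in mice 2, 9, 11 and 12.

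Actn3 (ENSMUSG00000006457, minus strand of chromosome 19, bases 4861216 to 4877909) encodes alpha-actinin-3, which crosslinks actin at the Z disc of fast fibers. It had 0.331, 1.92 and 0.119 CPM in the P30 mice and 0.450, 0.672 and 0.394 CPM in P32 mice. At P34 it had 1.02, 0.588 and 3.15 CPM, and at P38 0.533, 0.492 and 3.39 CPM, in the order of the mice. Actn3 was the one member for which mouse 11 did not stand out, since mice 5, 7, 8 and 10 had higher levels.

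Mylpf (ENSMUSG00000030672, plus strand of chromosome 7, bases 127208890 to 127214298) encodes the regulatory light chain of fast skeletal myosin. It had 3.09, 11.04 and 3.21 CPM in the P30 mice, 4.77, 3.41 and 2.61 CPM in P32 mice, 3.51, 2.89 and 22.5 CPM in P34 mice and 3.52, 5.23 and 16.9 CPM in P38 mice. The lowest library still had 106 counts, and the highest was 8.60-fold above it, the smallest such range among the 9 genes. Mouse 11 was only 1.10-fold above mouse 4.

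Myh4 (ENSMUSG00000057003, plus strand of chromosome 11, bases 67238029 to 67260446) encodes the myosin heavy chain of type IIb fibers, the fastest limb type. It was at 0 counts in mice 1, 3, 4, 6, 8 and 10, and had 1 and 8 counts in mice 7 and 5. Mice 2, 9, 11 and 12 had 364, 211, 58 and 155 counts, or 7.35, 7.14, 1.36 and 5.26 CPM. Myh4 was the one member with its highest level in a P30 control mouse. Its level in mouse 2 was at least 81.7-fold above that of each of the 6 mice at 0 counts, taken at the floor of 3 counts in each library.

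Myh1 (ENSMUSG00000056328, plus strand of chromosome 11, bases 67200052 to 67224575) encodes the myosin heavy chain of type IIx fibers. It had 1, 50 and 0 counts in the P30 mice, 1, 0 and 0 in the P32 mice, 2, 3 and 50 in the P34 mice and 0, 24 and 9 in the P38 mice. The levels in mice 2, 9, 11 and 12 were 1.01, 1.69, 0.563 and 0.305 CPM, all above the 0.0735 CPM of mouse 8, the next in order. Its highest level was below the highest level of each other member, and all of its levels rest on 50 counts or fewer.

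Atp2a1 (ENSMUSG00000030730, minus strand of chromosome 7, bases 126445858 to 126463108) encodes SERCA1, the calcium pump of the sarcoplasmic reticulum of fast fibers. It had 0.962, 8.15 and 0.772 CPM in the P30 mice, 0.840, 0.827 and 0.813 CPM in P32 mice, 0.580, 0.612 and 14.5 CPM in P34 mice and 0.849, 3.16 and 9.77 CPM in P38 mice. The other 8 libraries were within 0.580 to 0.962 CPM, a narrow band, and mouse 11, the lowest of the 4, was 3.29-fold above it.

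Ckm (ENSMUSG00000030399, plus strand of chromosome 7, bases 19404776 to 19422841) encodes the muscle form of creatine kinase. It had 0.331, 8.74 and 0.921 CPM in the P30 mice, 1.26, 0.646 and 0.296 CPM in P32 mice, 0.414, 0.367 and 18.2 CPM in P34 mice and 0.533, 2.88 and 15.1 CPM in P38 mice. The same 4 mice were highest, with mouse 11 at 2.29-fold the level of mouse 4, the next. From the lowest to the highest library Ckm spanned 61.7-fold.

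**Figure D1:**
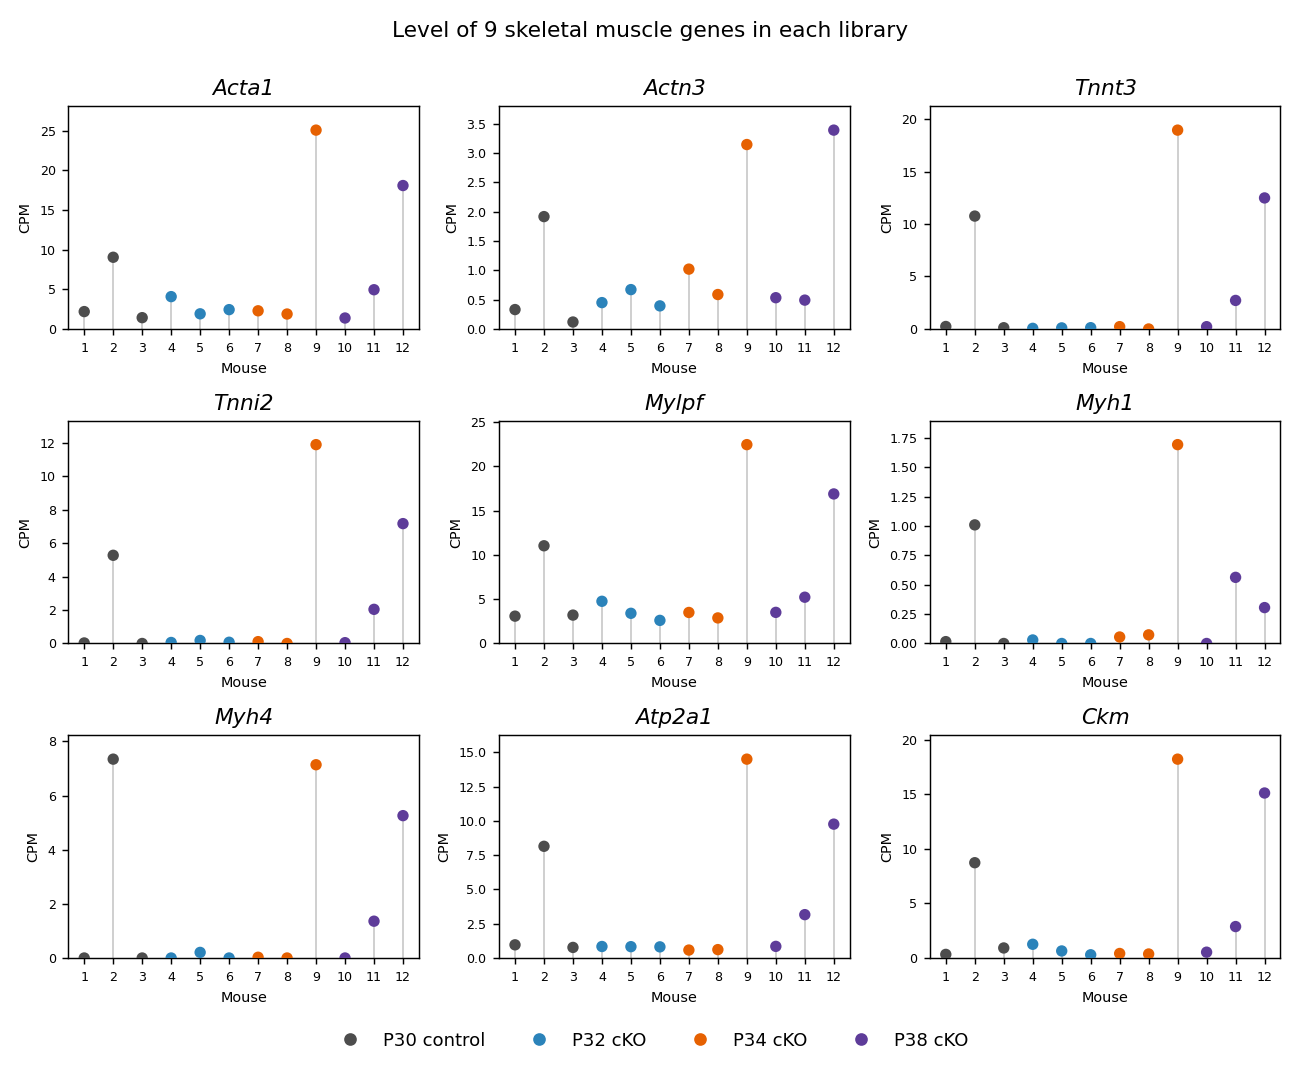
Level of each of the 9 genes (vertical axis, CPM, starting at 0 and scaled to each gene) in each of the 12 mice (horizontal axis), with 1 point per library colored by group. Mice 2, 9 and 12 are the 3 highest in 8 of the 9 panels, and mouse 11 is above the remaining mice in every panel but that of Actn3.

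Summed over the 9 genes, the level was 7.19, 63.3 and 6.56 CPM in P30 mice 1 to 3 and 11.5, 7.96 and 6.75 CPM in P32 mice 4 to 6. It was 8.22, 6.41 and 123 CPM in P34 mice 7 to 9 and 7.08, 23.4 and 88.5 CPM in P38 mice 10 to 12. One P30 mouse, one P34 mouse and a pair of P38 mice were thus high, and no P32 mouse was. As a share of all counts the 9 genes took 0.000627 to 0.0122%. The group means were 25.7 ± 32.6 CPM in the P30 mice, 8.75 ± 2.49 CPM in P32 mice, 45.9 ± 66.8 CPM in P34 mice and 39.7 ± 43.1 CPM in P38 mice (SD, n = 3), so that in 3 of the 4 groups the SD was larger than the mean. If these levels came from muscle, which was not tested, a bulk library could not tell the number of fragments from the RNA per fragment.

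**Figure D2:**
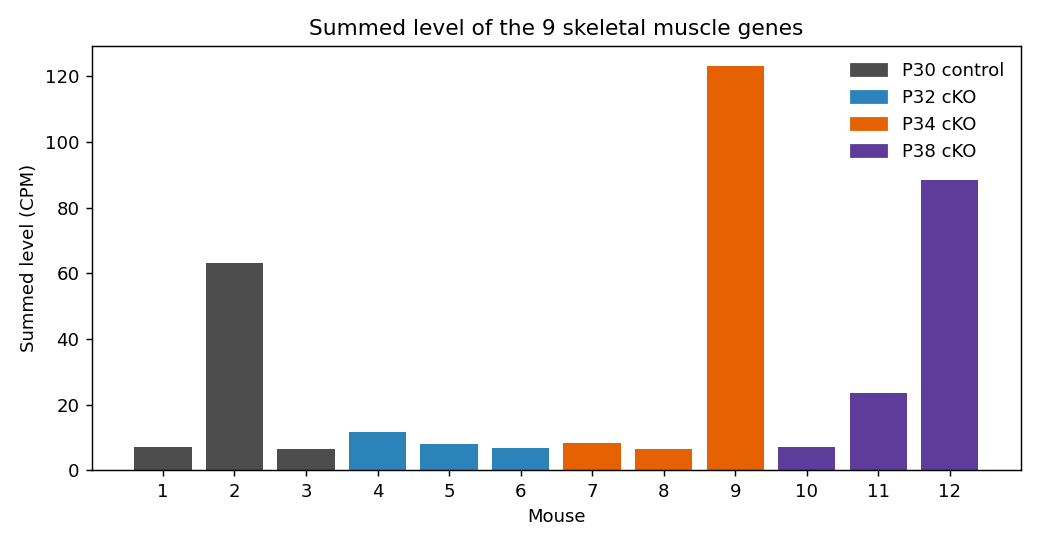
Summed level of the 9 genes (vertical axis, CPM, from 0) in each of the 12 mice (horizontal axis), with bars colored by group. Mouse 9 reaches 123 CPM, mice 12, 2 and 11 reach 88.5, 63.3 and 23.4 CPM, and the other 8 bars lie between 6.41 and 11.5 CPM.

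The order of the 4 high libraries was mostly the same from gene to gene. It was mouse 9, 12, 2 and 11 in 6 of the 9 genes, and mouse 9 was the highest of all in 7. In 8 of the 9 genes these 4 libraries were above the other 8, a pattern found in 93 of the 18628 genes tested (0.499%), and the members were chosen for such levels. A gap of more than 2-fold between the lowest of the 4 and the highest of the rest was found in 10 of all genes tested (0.0537%). Of those 10 genes, 6 were members (Atp2a1, Ckm, Myh1, Myh4, Tnni2 and Tnnt3), and the other 4 were Cox6a2, Myl1, Tnnc2 and Trdn, each of which encodes a protein of striated muscle. The range from the lowest to the highest library, on the log2 CPM scale with a prior count of 2, had a median of 5.12 over the members, 1.77 over 70 other skeletal muscle genes and 0.94 over all genes tested.

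The make-up of the members' summed level differed between the 4 high libraries and the rest. These libraries were set apart by the same genes, with the widest gaps in Tnnt3 and Tnni2. A difference in shares thus follows in part from the grouping, and it is given as a description. Levels per kilobase of exon allow the genes to be set side by side. Mylpf gave 30.1 to 36.2% of the summed level per kilobase in mice 2, 9, 11 and 12, and 52.9 to 66.3% in the other 8 mice. Tnnt3 gave 12.6 to 19.997% in the former and 0 to 2.98% in the latter, and Tnni2 gave 9.48 to 11.3% and 0 to 2.25%. Acta1 overlapped, with 17.3 to 23.7% and 18.03 to 34.2%. In the other 8 libraries the low signal was thus mostly Mylpf and Acta1, which have counts everywhere, with next to no fast troponin.

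Myh1, Myh4 and their neighbor Myh2, which encodes the heavy chain of type IIa fibers, tell fast fiber types apart. Myh2 was singled out after its values were seen. Of the counts on these 3 genes, Myh4 took 87.5% in mouse 2 (95% Wilson interval 84.0 to 90.3%, 416 counts) and 93.4% in mouse 12 (88.5 to 96.3%, 166 counts). In mouse 9 it took 69.4% (64.0 to 74.3%, 304 counts), and in mouse 11 it took 52.3% (43.0 to 61.3%, 111 counts). The intervals of mice 2 and 12 lie above those of mice 9 and 11. Myh2 took 0.481% in mouse 2 (0.132 to 1.74%) and 1.20% in mouse 12 (0.331 to 4.29%), against 14.1% in mouse 9 (10.7 to 18.5%) and 26.1% in mouse 11 (18.9 to 35.0%). Myh1 took 12.0, 16.4, 21.6 and 5.42% in mice 2, 9, 11 and 12. The intervals cover counting error only, not the spread between mice, and the reads carried no molecular identifiers. The shares are a description of 4 libraries that were set apart by these same genes, with no test.

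**Figure D3:**
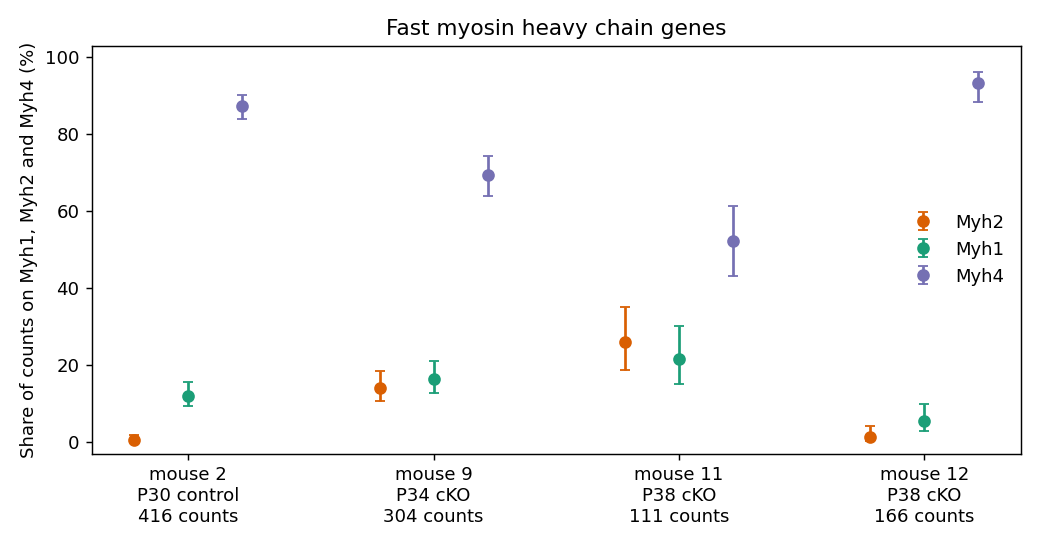
Share of the counts on Myh1, Myh2 and Myh4 that fell on each gene (vertical axis, percent) in the 4 libraries with at least 20 such counts (horizontal axis, with group and number of counts). Points are shares and bars are 95% Wilson intervals; Myh4 is 87.5 and 93.4% in mice 2 and 12 and 69.4 and 52.3% in mice 9 and 11.

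Mb, which encodes the oxygen carrier myoglobin of oxidative fibers and was also singled out after its values were seen, had 27, 240, 81 and 71 counts in mice 2, 9, 11 and 12, and 3 to 31 in the others. Against Ckm, the counts of Mb came to 0.06 in mouse 2 and 0.16 in mouse 12, but to 0.45 in mouse 9 and 0.66 in mouse 11. In the other 8 libraries, with 42 or fewer counts of Ckm, the ratio was 0.2 to 1.5, a range that holds mice 9 and 11. Myh3, which encodes the embryonic heavy chain that extraocular muscle keeps in the adult, had 56 counts in mouse 9 and 16 in mouse 11, and 8 or fewer in every other mouse, among them 8 in mouse 2 and 1 in mouse 12.

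The heavy chains share sequence, which limits these shares. The authors' counting left out reads that matched more than 1 position. Of all distinct words of 50 bases, the read length, in the GENCODE M21 transcripts of Myh1, 30.5% also occurred in another gene, mostly Myh2, and the share was 18.9% for Myh4 and 28.9% for Myh2. The longest run common to Myh1 and Myh4 was 161 coding bases long. It is shown because a read inside it cannot be given to either gene. In Myh1 it spans exon 25 (chr11:67214635-67214651), exon 26 (chr11:67214737-67214827) and exon 27 (chr11:67214918-67214970) of GRCm38, plus strand, and in Myh4 it spans exons 24 to 26.
Myh1 and Myh4: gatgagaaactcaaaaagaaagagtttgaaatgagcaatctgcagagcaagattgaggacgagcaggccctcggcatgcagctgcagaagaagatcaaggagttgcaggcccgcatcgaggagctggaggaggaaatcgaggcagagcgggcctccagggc
Mylpf, Tnnt3 and Tnni2 shared 0 words with other genes, Actn3 shared 0.0705% and Acta1 shared 2.02%. Ckm shared 11.5% of its words with A930016O22Rik, which lies within it on the opposite strand, and Atp2a1 shared 17.9% with Rabep2, which overlaps its end on the opposite strand. The strand setting of the counting was not stated, so reads of these pairs may not be separable.

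The label of extraocular muscle was set beside Myh13, Myh3, Myh8, Myh6, Myh7b and Alx4, which mark that muscle among skeletal muscles. Myh13, the superfast heavy chain that is its defining gene, had 1 to 8 counts in every library, with 8 in mouse 2, 3 in mouse 9, 1 in mouse 11 and 2 in mouse 12. Myh8, the perinatal heavy chain, had 0 to 2 counts. Myh6 had 1 to 9 counts, with its highest level of 0.240 CPM in mouse 4. Myh7b, a slow-type heavy chain, had 10.7 to 22.6 CPM in every library. Alx4 had 2 to 20 counts, with 0.404, 0.305, 0.188 and 0.0679 CPM in mice 2, 9, 11 and 12 and its highest level of 0.445 CPM in mouse 3. The source of the RNA of the members was not tested.

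Beyond the 9 members, 100 skeletal muscle genes in 6 lists were followed. Of these, 70 passed the filter on low counts. Mice 2, 9, 11 and 12 were above the rest in 10 of the 70 (0.499% in all genes tested). These 4 libraries had been set apart by the members, and the lists were chosen with earlier results known. Trdn, Myl1 and Myot, with few counts elsewhere, passed the filter only through these libraries. The number of genes is therefore a description, with no test. The 10 genes were Ttn and Myl1 of the thick filament, Tnnc2 and Actc1 of the thin filament, and Myot and Smpx of the Z disc. The rest were Trdn of the calcium release unit, and Ckmt2, Cox6a2 and Mb of energy metabolism. The gap was more than 2-fold in 4 of the 10 (Cox6a2, Myl1, Tnnc2 and Trdn), and some of the others were near ties. Ckmt2 had 0.844 CPM in mouse 11 and 0.810 CPM in mouse 4, and Myot had 3 counts in mouse 11 and 2 in mouse 5. Tnnc2, fast troponin C and the third subunit beside Tnnt3 and Tnni2, had 4.48, 9.54, 1.36 and 7.36 CPM in mice 2, 9, 11 and 12 and at most 0.362 CPM in the others. Myl1, the fast essential light chain, had 2.04, 4.26, 0.680 and 2.51 CPM in these mice and at most 0.103 CPM in the others. Trdn, triadin, had 48, 31, 8 and 21 counts and otherwise 0 or 1. All 3 subunits of fast troponin were thus low outside the 4 libraries.

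The most highly counted genes of the same lists had counts in every library. Myom1 had 4.07 to 8.58 CPM and Ttn 1.02 to 4.94 CPM among thick filament genes, beside Myh7b. Tnnt1, slow troponin T, had its highest level of 39.2 CPM in mouse 4 and its lowest of 12.7 CPM in mouse 10. Tpm2, which smooth muscle also uses, had 11.8, 9.71, 2.39 and 6.85 CPM in mice 2, 9, 11 and 12, but also 7.66 CPM in mouse 3 and 4.71 CPM in mouse 4. Actc1 had 4.24, 5.58, 2.27 and 4.31 CPM in mice 2, 9, 11 and 12 and up to 2.12 CPM elsewhere. These genes are also used outside skeletal muscle, and their levels in the other 8 libraries were well above the floor.

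Of the Z disc list, Pdlim3 had 7.47 to 14.6 CPM and Klhl41 4.28 to 6.77 CPM. Of the excitation and calcium list, Cacna1s had up to 36.5 CPM and Pvalb 13.4 to 32.9 CPM. Pvalb, the calcium buffer of fast fibers and of some neurons, was highest in mice 9 and 12, at 32.9 and 27.1 CPM, but mice 2 and 11 had 18.8 and 13.7 CPM, within the range of the others. Of the energy list, Pfkm had 208 to 284 CPM in all libraries, and Pygm and Phka1 reached 156 and 42.1 CPM. Of the regulators, Mef2c reached 184.8 CPM and Mstn 2.15 CPM. Myf6, a myogenic factor, had 15 to 32 counts in every library.

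The genes whose centered log2 CPM over the 12 libraries lay nearest to the mean of the members were Trdn, Myl1, Tnnc2, Myot, Cox6a2, Myoz1, Mb, Mybpc2, Smpx and Pi16, in this order. Their root mean square distances ran from 0.30 for Trdn to 1.20 for Pi16, on the log2 scale, and the median over all genes tested was 1.91. The members themselves lay at 0.40 (Atp2a1) to 1.20 (Myh4). Of the 10 nearest genes, 9 were on the skeletal muscle lists, which hold 70 of the 18628 genes tested besides the members. The mean profile comes from members chosen by their levels in these libraries, so this number is a description. The exception was Pi16, a secreted peptidase inhibitor of fibroblasts and heart. Pi16 had 1.37, 2.504, 0.938 and 3.19 CPM in mice 2, 9, 11 and 12 and at most 0.832 CPM elsewhere.

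The levels of genes that mark other tissues were summed over each list and are given as a description. Smooth muscle genes summed to 199 CPM in mouse 2 but to 217 CPM in mouse 3, and to 16.3, 24.1 and 22.5 CPM in mice 9, 11 and 12, among 14.9 to 217 CPM in all libraries. Pigment cell genes were likewise highest in mice 2 and 3, at 816 and 665 CPM, and were 38.7 and 29.3 CPM in mice 9 and 12. Lens genes were highest in mice 4, 3 and 5, at 45746, 39436 and 33395 CPM, and were 532 CPM in mouse 2 and 568 CPM in mouse 9. Mice 11 and 12 had 5317 and 5804 CPM of them. Fibroblast and sclera genes had 112, 56.8, 112 and 67.0 CPM in mice 2, 9, 11 and 12 and 30.2 to 130 CPM over all. Fat genes stayed between 0.193 and 0.801 CPM, and Schwann cell genes had 55.2, 44.1, 71.8 and 52.1 CPM in mice 2, 9, 11 and 12, below the highest of 106 CPM in mouse 4. Heart muscle genes had 89.5, 95.6, 115 and 109 CPM in mice 2, 9, 11 and 12 and 52.6 to 115 CPM over all, with mice 11 and 12 the highest. Nearly all of this sum was Ryr2, at 45.7 to 111 CPM, and no other gene of the list was above 2.38 CPM in any library.

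**Figure D4:**
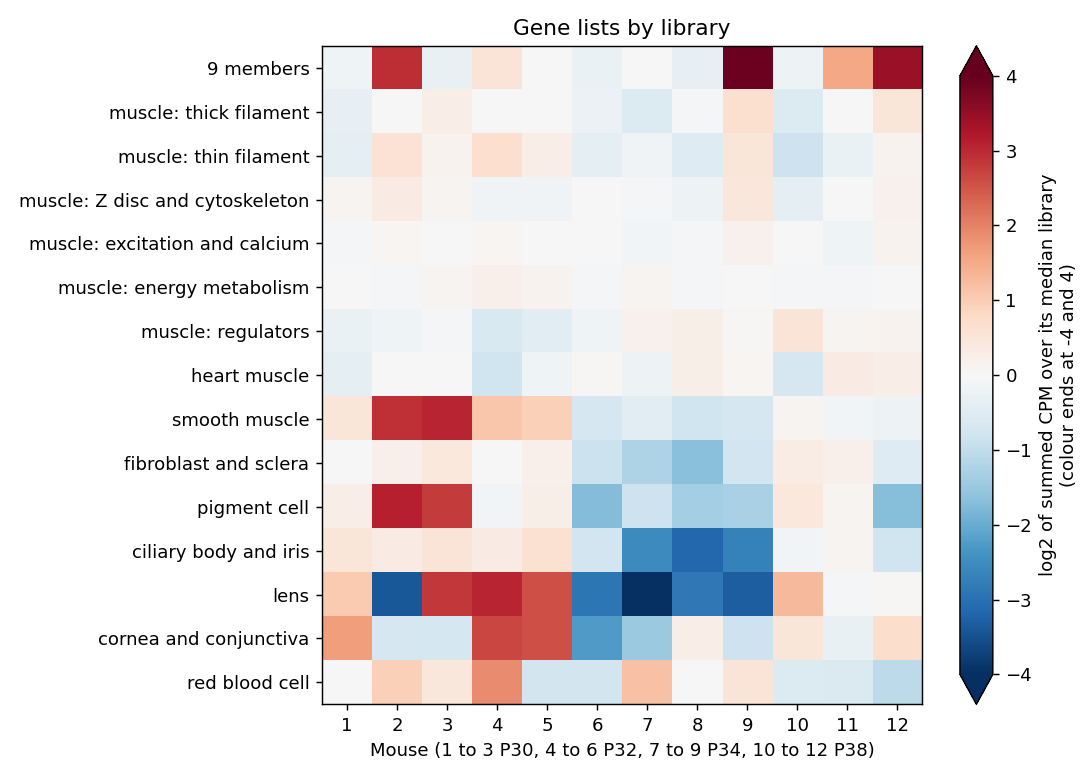
Summed CPM of the 9 members and of 14 other gene lists (vertical) in each mouse (horizontal), as the log2 of the ratio to the median library of the list, with the color scale ending at -4 and 4. The members are high in mice 2, 9, 11 and 12, while smooth muscle and pigment cell genes are high in mice 2 and 3 and lens genes in mice 3, 4 and 5.

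The comparison of the groups asks whether deletion of Otx2 from photoreceptors altered gene expression. In the quasi-likelihood test of edgeR, with calls at a Benjamini-Hochberg adjusted p up to 0.05 and a log2 fold change of 0.5 or more either way, the percentage of all tested genes called was 0.66 for P34 and 0.36 for all cKO mice against P30, 0.242 for P34 against P32, 0.199 for P38 against P34, and 0.0 for P32 and P38 against P30 and for P38 against P32. The members were chosen for their levels in these libraries, so no call is given for them, and their fold changes are a description.

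The fitted log2 fold changes of the members were large, and they turned with single libraries. Against P30, their median was -2.20 at P32, with 0 of 9 above 0, and 0.27 without mouse 2. At P34 it was 0.77, with 8 of 9 above 0, but -2.48 without mouse 9 and 3.39 without mouse 2. At P38 it was 0.55, with 7 of 9 above 0, but -0.72 without mouse 12 and 3.35 without mouse 2. For all cKO mice it was -0.30, with 3 of 9 above 0, and 2.34 without mouse 2. Over all genes tested the medians were within 0.01 of 0 in these 4 comparisons, which share the P30 mice. In each of them, leaving out 1 library turned the sign of the median.

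Between the cKO ages, the members' median log2 fold change was 3.11 for P34 against P32, with 9 of 9 above 0, and -0.44 without mouse 9. For P38 against P32 it was 3.08, with 9 of 9 above 0, and 1.28 without mouse 12. For P38 against P34 it was -0.19, with 0 of 9 above 0, but 2.94 without mouse 9, 0.26 without mouse 10 and 0.02 without mouse 11. The comparisons with P32 have in common that no P32 library was high. Without mice 2, 9, 11 and 12 only 5 members passed the filter, and their median was 0.25, 0.01 and -0.04 at P32, P34 and P38 against P30.

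**Figure D5:**
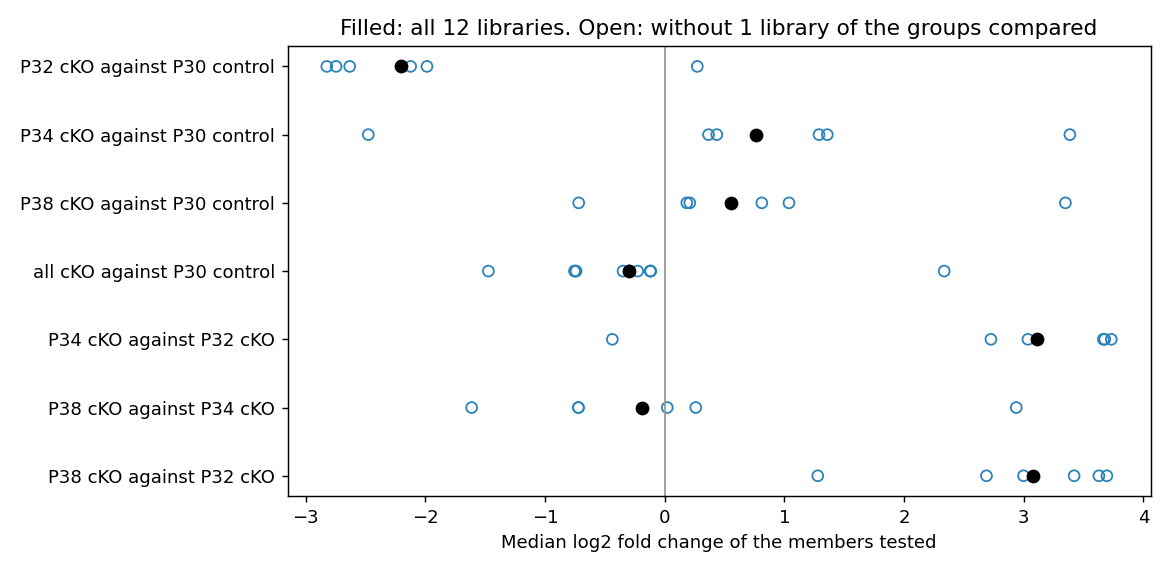
Median log2 fold change of the members tested (horizontal axis) in each of the 7 comparisons (vertical axis), with all 12 libraries (filled points) and without each library of the groups compared (open points). In P34 against P30 the open points run from -2.48 (without mouse 9) to 3.39 (without mouse 2), and in 6 of the 7 comparisons at least 1 open point lies across 0 from the filled point.

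The 70 other skeletal muscle genes tested gave 0 calls in all 7 comparisons by the same adjusted test. With the p left unadjusted, 3 were lower at P32 than at P30 (1.77% of all genes were), 5 were lower (5.42%) and 5 higher (0.854%) at P34, and 2 were lower at P38 (2.66%). In all cKO mice 2 were lower than at P30 (2.66%). For P34 against P32, 5 were lower (8.93%) and 8 higher (5.49%). For P38, 5 were lower (6.23%) and 3 higher (5.68%) than at P32, and 2 were lower than at P34 (0.8%). Their median log2 fold changes lay between -0.15 and 0.10 over the 7 comparisons. Counts were also simulated for P34 against P30. The test found 95 of 100 genes given a log2 change of 2 and 60 of 100 given a change of 1. The changed genes were drawn from better counted genes, so these rates do not hold for list genes with few counts or a wide spread. At P34 against P30, the log2 fold changes of Trdn, Myl1 and Tnnc2 had standard errors of 1.54, 1.59 and 1.54. The 0 calls therefore do not show that such genes were unchanged.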

How the data were processed

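Whole retina RNA of 12 mice was made into stranded mRNA libraries and read by the authors in single reads of 50 bp. STAR 2.5.3a placed the reads on mm10, and HTSeq 0.6.1p1, in its union mode, counted them on Ensembl 93 genes. The authors deposited whole-number counts per gene for each mouse, without normalization. The 5 summary lines of HTSeq were left out of library sizes, and of all reads 23.7 to 32.2% had no unique position.

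Symbols, GRCm38 positions and union exon lengths came from GENCODE M21, which named 54079 of 54146 genes. CPM used TMM scaling in edgeR 4.0.16 (R 4.3.3). The low-count filter of edgeR, given the 4 groups, kept 18628 genes, and all 12 libraries entered 1 quasi-likelihood fit with 1 mean per group, with Benjamini-Hochberg adjustment over all genes tested. The procedure was tested on simulated counts. Mice of 1 group differed by a chi-square per degree of freedom of 19.7 to 254, so each was taken as a separate library. Groups came from the labels, and p-values measure the spread between these mice.

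The members and the lists were chosen with earlier results of these data known. Besides the members, genes are named by rule: the 3 with the highest mean CPM in each skeletal muscle list, all genes of the extraocular muscle list, and the 10 nearest to the members' mean profile. Genes counted in a set of 10 or fewer are named as well. Some genes that these rules name are not reported here. Alternatives were DESeq2 1.42.0 (its test and its size factors), library totals, other filters on low counts, a robust fit, fits with only the groups compared, other prior counts, levels per kilobase, an unadjusted p, and leaving out each mouse. Leaving out mice 2, 9, 11 and 12 together was added after seeing the data.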

Additional observations from a re-analysis of the deposited data

Results flagged for a closer look

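Among the 9 cKO mice, 44 genes named here were checked for a library far from the others, by the gap between the highest or lowest library and its neighbor over the whole range against the 95% critical value of Dixon. Chance flags about 1 in 20 groups, a rate that does not hold for genes chosen by their levels in these libraries, as Myh1 was, or singled out after their values were seen, as Myh2 and Mb were, so nothing is read from the number of genes found, which was 8. In 7 of them the library was that of P34 mouse 9, the one with the highest summed level of the members. It had 1.69 CPM of Myh1 (next 0.563 CPM), 1.45 CPM of Myh2 (next 0.680 CPM), 1.89 CPM of Myh3 (next 0.375 CPM) and 8.12 CPM of Mb (next 2.41 CPM). It also had 0.711 CPM of Myot (next 0.339 CPM), 6.77 CPM of Klhl41 (next 5.48 CPM) and 0.305 CPM of Alx4, on 9 counts (next 0.188 CPM). Pfkm, the muscle form of phosphofructokinase, which every library held, was instead highest in P34 mouse 7, at 284 CPM (next 241 CPM).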

How the results depend on the processing

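The count of 0 other skeletal muscle genes called did not change with DESeq2's size factors, library totals, a filter of 10 counts in 3 libraries, a robust fit, or, where run, fits with only the groups compared. At an unadjusted p it was 3, 10 and 2 for P32, P34 and P38 against P30, 2 for all cKO mice against P30, 13 for P34 against P32, 2 for P38 against P34 and 8 for P38 against P32, beside 2.90, 6.27, 3.46, 2.95, 14.4, 3.81 and 11.9% of all genes in this order. Nothing is read from these counts. DESeq2's Wald test called 1 of 69 at P34 against P30 (1.98% of all genes were), 4 of 59 at P34 against P32 (8.65%) and 3 of 50 at P38 against P32 (6.05%), of those with an adjusted p. Without a filter on low counts, 5 of 99 were called at P34 against P32 (1.93% of all genes) and 2 of 99 at P38 against P32 (0.591%). Without each mouse in turn, the count was 0 to 1 for all cKO mice against P30 (1 of 75 without P30 mouse 1, and 0.567% of all genes), 0 to 8 for P34 against P32 and 0 to 4 for P38 against P32 (the highest, of 75, without P32 mouse 6, where 14.3% and 10.2% of all genes were called), and 0 in the other comparisons. The cause was not tested. Without mice 2, 9, 11 and 12, chosen after seeing the data, 0 were called, with 1 library left at P38, which is assumed to vary like the other groups. As CPM per kilobase of exon, a change of unit, the summed level of the members was 14.5, 6.02, 26.8 and 23.0 at P30, P32, P34 and P38, beside 25.7, 8.75, 45.9 and 39.7 in CPM. The fit with only the groups compared was not run apart for all cKO mice against P30, where all groups enter. Levels near 3 counts (0.0473 to 0.102 CPM) limit Myh1, Myh4, Tnnt3 and Tnni2. No paired analysis was possible because the mouse numbers 1 to 12 are shared by no groups.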
